A study of Mus musculus with 12 samples.

Results

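Autophagy and mitophagy genes of C2C12 cells were followed through 10 genes: the cargo receptors Sqstm1 and Nbr1, the ATG8-family genes Map1lc3a, Map1lc3b and Gabarapl1, the mitophagy receptors Bnip3, Bnip3l and Fundc1, the kinase Ulk1 and the lysosomal protease Ctsl. They were taken by symbol from the table of estimated counts, where they make up 10 of 56941 rows, and all 10 passed the filter on low counts. C2C12 are mouse myoblasts kept as a line, and they fuse into myotubes with many nuclei. The ChR2 line carries ChR2::tdTomato, in which the light-gated cation channel channelrhodopsin-2 is joined to a red fluorescent protein, and the other line was wild-type. Each line filled 6 wells on a fibrin gel 1 mm thick made with 8 mg of fibrinogen per mL, and every well had 2 days of growth medium followed by 6 days of differentiation medium. Both media held aminocaproic acid, and the second also held inactivated horse serum and IGF-1. Neither the promoter of the transgene nor the number of clones in the line is given in the labels, and no light stimulation is mentioned. Whether the wells were independent cultures is not stated, so the p-values rest on differences between wells, which may be technical.

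Macroautophagy encloses cell contents in a double membrane, the autophagosome, which then fuses with the lysosome. The ULK1 kinase starts the process, ATG8-family proteins (the LC3 and GABARAP proteins) are joined to lipid of the growing membrane, and receptors with an LC3-interacting region tie cargo to them. SQSTM1 (p62) and NBR1 carry ubiquitinated protein, whereas BNIP3, BNIP3L (NIX) and FUNDC1 sit in the outer mitochondrial membrane and mark mitochondria for mitophagy. In muscle, these genes are known for their part in protein turnover during atrophy and in the renewal of mitochondria during differentiation. Transcript levels do not measure autophagic flux, since several of the proteins are themselves degraded by it.

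Bnip3 and Sqstm1 stood at opposite ends of the fold changes described below, and each has a regulator known from other work, the hypoxia-inducible factors for Bnip3 and NRF2 for Sqstm1. The 250 bases upstream of each start are therefore shown, from RefSeq on build GRCm38.p6, both from the minus strand, at chr7:138909507-138909756 for Bnip3 and chr11:50210821-50211070 for Sqstm1. Capitals mark matches to any of 5 motifs searched on both strands. They were the ACGTG form of the hypoxia response core, the E-box CACGTG that contains it and the antioxidant response core TGACNNNGC. The others were the forkhead site GTAAACA and the ATF4 response core TGATGNAA. GCGTG, the other form of the hypoxia response core, was not searched and is not marked.
Bnip3: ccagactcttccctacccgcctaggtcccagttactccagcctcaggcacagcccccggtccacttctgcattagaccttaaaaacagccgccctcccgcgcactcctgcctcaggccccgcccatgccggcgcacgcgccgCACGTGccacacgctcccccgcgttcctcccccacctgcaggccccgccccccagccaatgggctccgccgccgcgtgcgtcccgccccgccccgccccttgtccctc
Sqstm1: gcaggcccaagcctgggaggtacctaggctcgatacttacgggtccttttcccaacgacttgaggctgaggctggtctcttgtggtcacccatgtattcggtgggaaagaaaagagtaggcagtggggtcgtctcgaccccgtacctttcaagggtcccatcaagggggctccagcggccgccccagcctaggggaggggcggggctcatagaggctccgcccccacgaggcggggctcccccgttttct
The Bnip3 window held 1 CACGTG, which begins 108 bases upstream of the start and reads as ACGTG on both strands. The Sqstm1 window held no match, which says only that these letters are not in it. Of 32851 windows of this length in the RefSeq table, 16.6% held ACGTG, 6.02% CACGTG, 10.2% TGACNNNGC, 3.17% GTAAACA and 3.45% TGATGNAA. The table had windows for 8 of the 10 genes, and beside Bnip3 and Ctsl a match was found only for Nbr1, with 1 ACGTG that begins 139 bases upstream of 1 of its starts. The Ctsl window held CACGTG and TGATGNAA, but its RefSeq start lay 214 bases from the nearest of the starts that GENCODE gives the gene, so it is not printed.

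The libraries held from 7388760 to 12229500 estimated counts in ChR2 and at least 10268100 in wild-type wells 1, 3, 4 and 6. Wild-type wells 2 and 5 stood apart, with 1061070 and 2809670 counts. In these 2 wells 24.8% and 8.37% of the counts came from 7SL RNA, which has no poly(A) tail, against at most 0.0341% in the other libraries. Per the labels' protocols some samples with little RNA were prepared by ribosomal RNA depletion, without saying which. The 10 genes are therefore described over 12 libraries and over the 10 without these wells. Genes of the lists are described over 12 libraries, and where a called gene lost its call over 10 or its log2 fold change moved by over 1.5 times, that is given. The other wild-type wells were not alike either, and wells 4 and 6 lay near the ChR2 wells in several of the genes below. Among the ChR2 wells, well 4 differed most, with 0.0341% of counts from 7SL RNA against at most 0.00514%. It had 0.746% of counts from mitochondrially encoded genes, against 1.92% to 2.73% in the other ChR2 wells.

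Of the 10 genes, 2 were higher in ChR2 (Bnip3 and Bnip3l) and 4 were lower (Sqstm1, Map1lc3a, Gabarapl1 and Ctsl) at an adjusted p under 0.05 by edgeR's quasi-likelihood test. Nbr1, Map1lc3b, Fundc1 and Ulk1 did not pass. Among all 13168 genes tested, 28.1% passed, 14% higher in ChR2 and 14.1% lower. Over 10 libraries 2 were again higher and 4 lower, with Map1lc3b in place of Gabarapl1, beside 35.2% of 13484 genes (18.9% higher and 16.3% lower). The median log2 fold change of the 10 genes, ChR2 over wild type, was -0.24 over 12 libraries and -0.24 over 10, against -0.02 and -0.00 over all genes tested. The wells of the lines did not overlap for 2 of the 10 genes (Map1lc3a and Ctsl), against 15.1% of all genes, and for 3 of the 10 (with Map1lc3b) over 10 libraries, against 25%. On TPM in the same 10 libraries (limma on log2(TPM + 1)), Sqstm1 (log2 fold change -0.89, adjusted p = 0.0965) and Bnip3l (0.24, adjusted p = 0.0972) no longer passed. RNA of a whole well was measured, so fewer cells of a kind and less RNA per cell cannot be told apart.

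**Figure D1:**
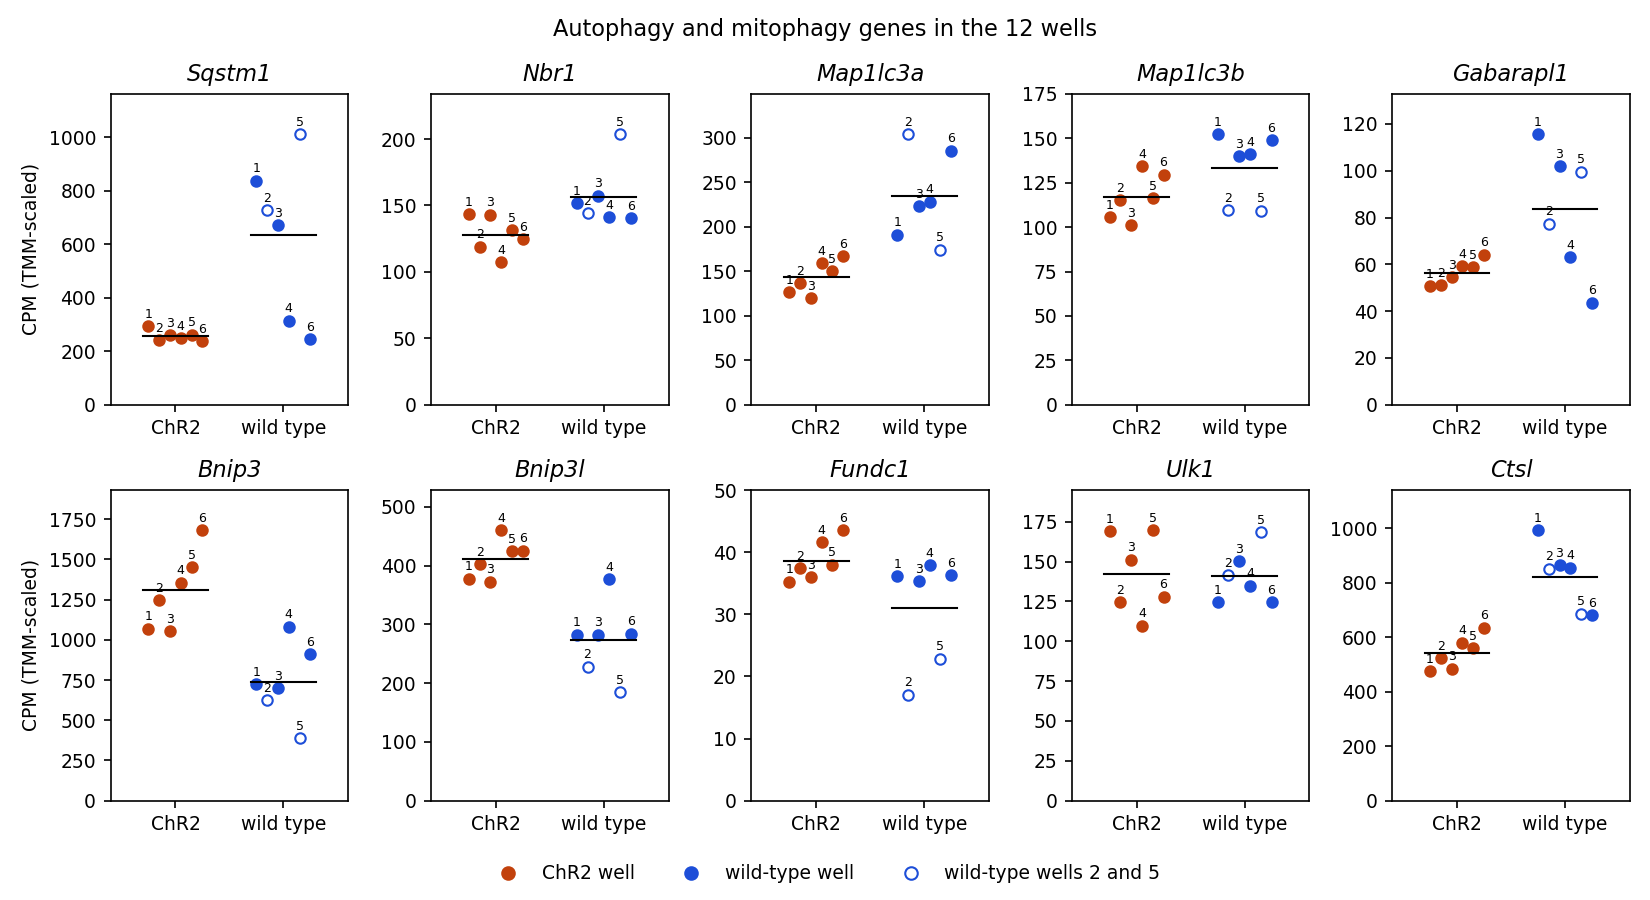
Level of each of the 10 genes in the 12 wells, as TMM-scaled CPM on axes that start at 0; each point is a well with its number, open points are wild-type wells 2 and 5 and black lines are means over 6 wells. Bnip3 and Bnip3l lie higher in ChR2, Ctsl and Map1lc3a lie lower without overlap, and Sqstm1 is spread from 244 to 1012 CPM in wild-type wells against 237 to 294 CPM in ChR2.

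Sqstm1 (ENSMUSG00000015837), the p62 receptor that gathers ubiquitinated protein, was the most changed of the 10. Levels here and below are counts scaled to library size (CPM, with TMM factors). Its levels in ChR2 wells 1 to 6 were 294, 240.1, 259.8, 249, 261 and 237 CPM. In wild-type wells 1 to 6 they were 838, 727, 670.1, 314, 1012 and 244 CPM. Wells 4 and 6 of the wild type thus lay close to the ChR2 wells, well 6 within their range, and the other 4 lay far above. ChR2 wells averaged 257 ± 20.7 CPM (SD, n = 6) and wild-type wells 634 ± 299 CPM (SD, n = 6), a 2.47-fold lower level in ChR2 (log2 fold change -1.30, SE 0.28, edgeR adjusted p = 0.00387). Without wild-type wells 2 and 5 the fold was 1.98 (log2 fold change -0.99, edgeR adjusted p = 0.025). The coefficient of variation among wells was 8.06% in ChR2 and 47.2% in wild type, or 55.0% in the 4 wild-type wells that remain.

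Nbr1 (ENSMUSG00000017119), the related receptor that works with p62 on ubiquitinated aggregates, differed less. Its levels were 143, 119, 143, 107, 131 and 125 CPM in ChR2 wells 1 to 6 and 152, 144, 157, 141, 204 and 140.2 CPM in wild-type wells 1 to 6. The groups overlapped slightly, with 2 ChR2 wells above the lowest wild-type wells, and wild-type well 5 was the highest of all. The log2 fold change was -0.29 (95% interval -0.54 to -0.03, edgeR adjusted p = 0.0859), and -0.19 (-0.38 to 0.01, adjusted p = 0.127) over 10 libraries.

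The spread of Sqstm1 among wild-type wells was set beside a list of 8 genes induced by NRF2, the transcription factor of the antioxidant response, for which Sqstm1 is itself known as a target. Of these, 7 fell in ChR2 and none rose, at a median log2 fold change of -1.34, while 5 fell over 10 libraries. Of all genes tested, 14.1% fell over 12 libraries and 16.3% over 10. The list was chosen with earlier results of these data known. The quinone reductase Nqo1 stood at 159, 59.0, 101, 20.2, 81.7 and 12.3 CPM in wild-type wells 1 to 6 and at 5.90 to 8.55 CPM in ChR2 (log2 fold change -3.29, edgeR adjusted p = 0.000919). The heme oxygenase Hmox1 stood at 257, 134, 222, 71.8, 424 and 51.8 CPM in the wild-type wells and at 31.7 to 43.8 CPM in ChR2 (log2 fold change -2.37, edgeR adjusted p = 0.00117). For both, as for Sqstm1, wild-type wells 4 and 6 were the lowest of their line, and this held for 7 of the 8 genes, with Slc7a11 the exception. The share of all genes with wells 4 and 6 lowest was not counted, so the tally has no background beside it. Gclm, which encodes a subunit of the ligase that starts glutathione synthesis, had 122, 39.5, 74.5, 22.6, 117 and 23.3 CPM in wild-type wells and 16.9 to 24.7 CPM in ChR2. The part of these differences between wells in the result for Sqstm1 was not tested. The summed level of the 8 genes was 267 to 326 CPM in ChR2 and 294 to 1573 CPM in wild type.

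**Figure D2:**
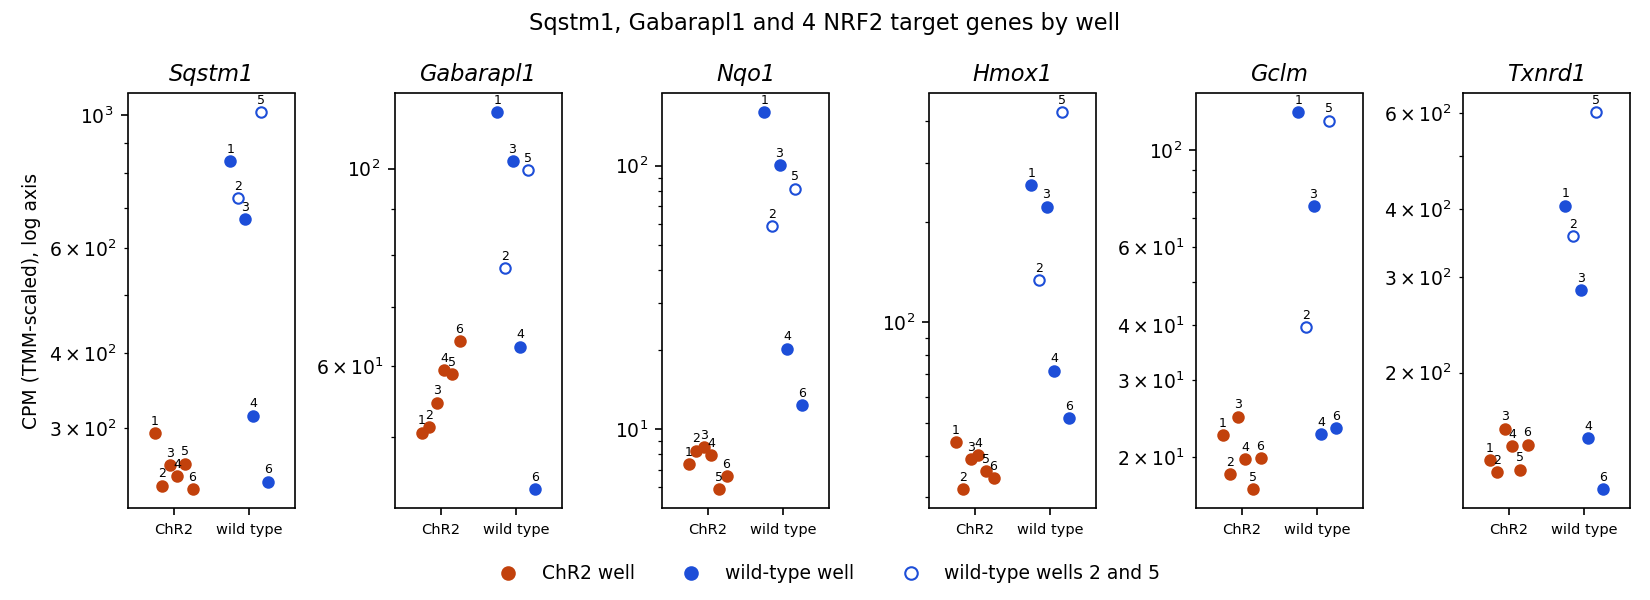
Levels of Sqstm1, Gabarapl1 and the NRF2 target genes Nqo1, Hmox1, Gclm and Txnrd1 by well, in TMM-scaled CPM on log axes; points are wells with their numbers, open points wild-type wells 2 and 5. In each gene wild-type wells 4 and 6 are the lowest of their line, with Sqstm1 at 314 and 244 CPM.

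Among the ATG8-family genes, Map1lc3a (ENSMUSG00000027602), which encodes the LC3A protein of the autophagosome membrane, was lower in every ChR2 well. It stood at 127, 136, 119, 159, 150.2 and 167 CPM in ChR2 wells 1 to 6. In wild-type wells 1 to 6 it stood at 191, 304, 223, 228, 174 and 285 CPM, so the highest ChR2 well was just below the lowest wild-type well. The means were 143 ± 18.7 CPM (SD, n = 6) in ChR2 and 234 ± 51.2 CPM (SD, n = 6) in wild type (1.63-fold lower in ChR2, log2 fold change -0.71, SE 0.15, edgeR adjusted p = 0.00315). Over 10 libraries the log2 fold change was -0.68 (edgeR adjusted p = 0.000988).

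Map1lc3b (ENSMUSG00000031812) encodes LC3B, the form most used as a marker of autophagosomes. It had 105, 115, 101, 134, 116 and 129.5 CPM in ChR2 wells 1 to 6 and 152, 109.7, 139.8, 141, 109 and 149 CPM in wild-type wells 1 to 6. Wild-type wells 2 and 5 fell among the ChR2 wells, and the other 4 wild-type wells lay above all of them. Accordingly the log2 fold change was -0.20 (95% interval -0.45 to 0.05, edgeR adjusted p = 0.223) over 12 libraries and -0.30 (-0.50 to -0.10, adjusted p = 0.0237) over 10. Its estimated counts were more than 0.01 away from a whole number in 11 of the 12 libraries, as were those of Bnip3 and Bnip3l, so reads were divided with other transcripts and these 3 levels are less certain.

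Gabarapl1 (ENSMUSG00000030161), a GABARAP-branch ATG8 gene known to be induced in wasting muscle, was lower in ChR2 but with little margin. It had 50.5, 51.2, 54.6, 59.3, 58.8 and 64.1 CPM in ChR2 and 116, 77.3, 102, 63.1, 99.5 and 43.6 CPM in wild-type wells 1 to 6. Wild-type well 6 was the lowest of all 12 wells and well 4 lay within the ChR2 range, the same pair of wells as for Sqstm1. The log2 fold change was -0.57 (SE 0.20, edgeR adjusted p = 0.0413), and -0.50 (edgeR adjusted p = 0.103) over 10 libraries. The call was also lost when any 1 library other than wild-type well 4 or 6 was left out, with adjusted p up to 0.104. As for Sqstm1, the part of the NRF2 target genes in this result was not tested.

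The mitophagy receptor Bnip3 (ENSMUSG00000078566), a BH3-domain protein of the outer mitochondrial membrane, was higher in ChR2. Its levels were 1069.5, 1247, 1054, 1356, 1450.5 and 1682 CPM in ChR2 wells 1 to 6. In wild-type wells 1 to 6 they were 726, 624, 701, 1081, 388 and 909.8 CPM. Only wild-type well 4 reached the ChR2 range, above the 2 lowest ChR2 wells, and well 5 was the lowest. The means were 1310.0 ± 240.0 CPM (SD, n = 6) in ChR2 and 738 ± 238 CPM (SD, n = 6) in wild type, 1.77-fold higher in ChR2 (log2 fold change 0.83, SE 0.21, edgeR adjusted p = 0.0109). Without wild-type wells 2 and 5 the fold was 1.55 (log2 fold change 0.63, edgeR adjusted p = 0.00878).

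Bnip3l (ENSMUSG00000022051), which encodes the homologous receptor NIX known for clearing mitochondria from maturing red cells, followed the same order of lines. It stood at 378, 402, 373, 460.5, 425 and 425 CPM in ChR2 and at 283, 228, 283, 377, 185 and 284 CPM in wild-type wells 1 to 6. Here too wild-type well 4 alone reached the ChR2 range, just above its lowest well. The log2 fold change was 0.58 (SE 0.15, edgeR adjusted p = 0.0104), and 0.44 (edgeR adjusted p = 0.00683) over 10 libraries. The count table also lists the pseudogene Bnip3l-ps, with at most 77.6 counts in a library.

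Fundc1 (ENSMUSG00000025040), a mitophagy receptor whose binding to LC3 is controlled by phosphorylation, did not pass the test. It had 35.3, 37.4, 36.0, 41.6, 38.0 and 43.6 CPM in ChR2 and 36.1, 17.0, 35.4, 38.0, 22.8 and 36.3 CPM in wild-type wells 1 to 6. The 4 deeper wild-type wells lay among the ChR2 wells, and the low wild-type values were those of wells 2 and 5. The log2 fold change was 0.25 (95% interval -0.07 to 0.58, edgeR adjusted p = 0.232), and 0.10 (-0.09 to 0.29, adjusted p = 0.39) over 10 libraries.

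Bnip3 and Bnip3l are known targets of the hypoxia-inducible factors, so 13 other hypoxia-inducible genes were set beside them. Of these, 8 rose in ChR2 and none fell, at a median log2 fold change of 0.60, while over 10 libraries 11 rose and none fell. Of all genes tested, 14% rose over 12 libraries and 18.9% over 10. This list too was chosen with earlier results of these data known. Car9, the membrane carbonic anhydrase, stood at 265 to 346 CPM in ChR2 and at 31.3, 102, 61.5, 188, 45.0 and 81.7 CPM in wild-type wells 1 to 6 (log2 fold change 1.84, edgeR adjusted p = 0.00129). Ndrg1, a stress-responsive gene, stood at 601 to 893 CPM in ChR2 and at 121, 256, 151, 471, 264 and 137 CPM in wild type (log2 fold change 1.75, edgeR adjusted p = 0.00073). In both, wild-type well 4 was the highest well of its line, as it was for Bnip3 and Bnip3l. In the list this did not hold for Slc2a1, highest in well 5, nor for Pdk1, Ankrd37 and Hk2, highest in well 2. The share of all genes with well 4 highest was not counted. The list's summed level was 7617 to 8957 CPM in ChR2 and 4321 to 6715 CPM in wild type. Its part in the results for Bnip3 and Bnip3l was not tested, and no oxygen measurement was analysed here.

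Ulk1 (ENSMUSG00000029512), the kinase that receives signals from mTORC1 and AMPK to start autophagy, was at nearly equal levels in both lines. Its values were 169, 125, 151, 109.9, 169.8 and 128 CPM in ChR2 and 125, 142, 150.3, 135, 168 and 125 CPM in wild-type wells 1 to 6, and the ranges of the lines overlapped almost entirely. The log2 fold change was 0.02 (95% interval -0.26 to 0.30, edgeR adjusted p = 0.943), and 0.11 (-0.16 to 0.37, adjusted p = 0.527) over 10 libraries. The interval leaves room for a modest change in either direction.

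Ctsl (ENSMUSG00000021477), the lysosomal cysteine protease cathepsin L that degrades delivered cargo, was lower in every ChR2 well. It had 476, 523, 485, 581, 559 and 636 CPM in ChR2 wells 1 to 6. In wild-type wells 1 to 6 it had 994, 852, 865, 856, 687 and 681 CPM, all above the highest ChR2 well. The means were 543 ± 61.0 CPM (SD, n = 6) and 822 ± 119.7 CPM (SD, n = 6), 1.51-fold lower in ChR2 (log2 fold change -0.60, SE 0.13, edgeR adjusted p = 0.00492). Over 10 libraries the log2 fold change was -0.63 (edgeR adjusted p = 0.00144), so the wells that stood apart did little to the value.

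**Figure D3:**
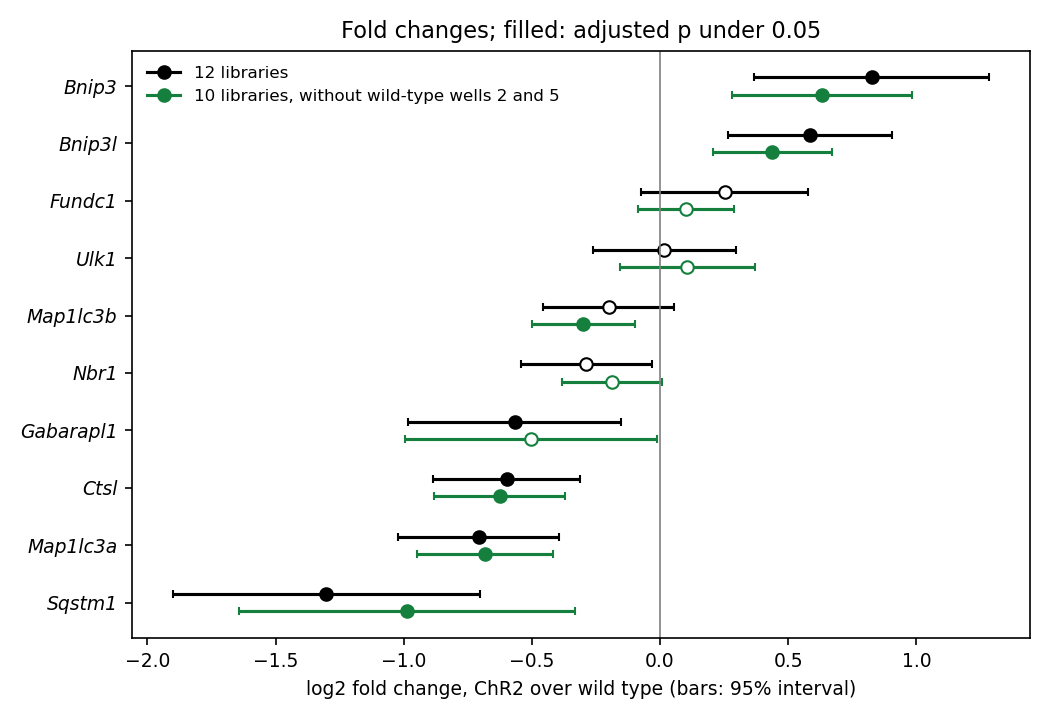
Log2 fold change of each of the 10 genes, ChR2 over wild type, with unadjusted 95% intervals computed from edgeR's F statistic. Black is the fit to 12 libraries and green the fit to the 10 without wild-type wells 2 and 5. Filled points have an adjusted p under 0.05. Sqstm1 lies lowest at -1.30 and Bnip3 highest at 0.83, and Map1lc3b and Gabarapl1 differ in call between the fits.

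Levels of different genes were compared in TPM, which corrects for transcript length. Wild-type wells 2 and 5 were left out here, since 7SL RNA took 72.0% and 50.8% of their TPM. In ChR2, Bnip3 was the most abundant of the 10 transcripts at 1183 ± 141 TPM (SD, n = 6), followed by Ctsl at 582 ± 39.7, Bnip3l at 389 ± 26.4, Map1lc3a at 249 ± 15.8, Sqstm1 at 181 ± 25.8 and Map1lc3b at 104 ± 7.52 TPM. No neighbours in this order overlapped between wells. Below them, Ulk1 (47.7 ± 10.8 TPM), Gabarapl1 (46.9 ± 4.48 TPM) and Nbr1 (43.0 ± 8.57 TPM) overlapped one another, and Fundc1 was the lowest at 29.7 ± 2.18 TPM, its highest well (31.6 TPM) just under the lowest for Nbr1 (31.8 TPM).

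In the 4 wild-type wells Ctsl led at 967 ± 180.5 TPM (SD, n = 4), with Bnip3 at 794 ± 155 TPM. These neighbours overlapped: Ctsl exceeded Bnip3 in wells 1 and 3 (1156 against 685 TPM, and 1019 against 683 TPM), and Bnip3 exceeded Ctsl in wells 4 and 6 (1012 against 970.3 TPM, and 796 against 723 TPM). Map1lc3a (436 ± 48.7 TPM), Sqstm1 (388 ± 227 TPM) and Bnip3l (332 ± 56.5 TPM) came next, with Sqstm1 spread across the other two. Map1lc3b stood at 154 ± 11.4 TPM, Gabarapl1 at 72.9 ± 35.0, Nbr1 at 52.9 ± 7.17, Ulk1 at 48.0 ± 4.73 and Fundc1 at 32.0 ± 3.35 TPM. Gabarapl1 ranged from 37.8 to 114.8 TPM, across the wells of Nbr1 and Ulk1, which also overlapped each other. Bnip3 made up 41.4% of the summed TPM of the 10 genes in ChR2 and 24.2% in these wild-type wells, and Ctsl 20.4% and 29.5%.

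Ratios of related genes within a library do not depend on the size factor of that library. The TPM ratio of Bnip3 to Bnip3l was 2.70, 3.18, 2.52, 3.21, 3.01 and 3.67 in ChR2 wells 1 to 6 and 2.27, 1.92, 2.17, 2.44, 1.65 and 2.69 in wild-type wells 1 to 6. Only wild-type well 6 reached the ChR2 range. The log2 ratio differed by 0.48, ChR2 minus wild type (exact permutation test, two-sided, p = 0.00433, Benjamini-Hochberg adjusted over 3 ratios 0.013). Over 10 libraries the difference was 0.34 (exact permutation, adjusted p = 0.0429). Taken on CPM, without the correction for length, it was 0.26 over 12 libraries (exact permutation, adjusted p = 0.0433), and wild-type well 4 also reached the ChR2 range.

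The ratio of Map1lc3a to Map1lc3b was 2.46, 2.27, 2.47, 2.29, 2.43 and 2.42 in ChR2 and 2.24, 5.56, 3.11, 2.90, 3.29 and 3.16 in wild type. Wild-type well 1 was the lowest of all 12 and well 2 far above the rest. The log2 ratio differed by -0.44, ChR2 minus wild type (exact permutation p = 0.0152, adjusted 0.0227). Without wild-type well 2 alone the difference was -0.28 (exact permutation, adjusted p = 0.0422), and without wells 2 and 5 it was -0.24 (adjusted 0.0643, where the smallest unadjusted p the design allows is 0.00476). The ratio of Sqstm1 to Nbr1 was 4.19, 4.20, 3.84, 4.94, 4.13 and 4.32 in ChR2 and 10.7, 7.29, 8.90, 4.70, 10.6 and 3.67 in wild type, again with wild-type wells 4 and 6 at the ChR2 level. Its log2 difference was -0.74 (exact permutation, adjusted p = 0.0411), and -0.58 (adjusted 0.0905) over 10 libraries.

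**Figure D4:**
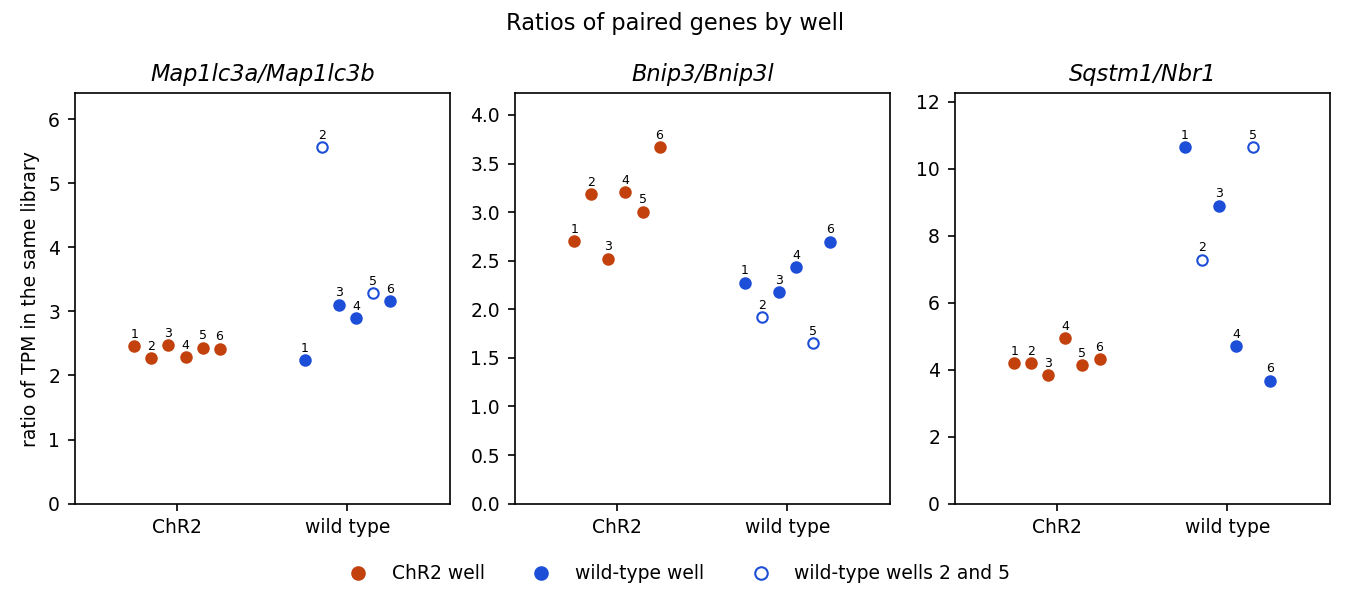
Ratio of TPM of 2 related genes in the same library, by well, on axes that start at 0; points are wells with their numbers and open points wild-type wells 2 and 5. The Bnip3 to Bnip3l ratio is 2.52 to 3.67 in ChR2 and 1.65 to 2.69 in wild type, and the Map1lc3a to Map1lc3b ratio of wild-type well 2 stands at 5.56.

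The rest of the pathway was read from 8 lists of autophagy and lysosome genes that hold none of the 10 genes. Among all genes tested, 14% passed as higher and 14.1% as lower, and over 10 libraries 18.9% and 16.3%. Of 21 genes of initiation and phagophore growth, 6 fell in ChR2, none rose and 15 did not pass (median log2 fold change -0.27), and over 10 libraries 8 fell and none rose. Atg14, which directs the lipid kinase VPS34 to autophagy, averaged 9.99 ± 1.44 CPM in ChR2 against 16.1 ± 4.26 CPM in wild type (SD, n = 6; log2 fold change -0.73, edgeR adjusted p = 0.00586). Atg2a, a lipid transfer protein of the growing membrane, fell by 0.71 on the log2 scale. Of 12 other ATG8 and conjugation genes, 2 fell, none rose and 10 did not pass (3 fell over 10 libraries), a share near that of all genes. Those that fell were Atg16l1, which places the conjugation complex on the membrane (log2 fold change -0.57), and the ATG8 protease Atg4d (-0.43, and -0.27 over 10 libraries). The other ATG8 genes Gabarap and Gabarapl2 did not pass, with log2 fold changes of 0.24 and -0.24.

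Of 15 other cargo receptors, 3 rose and 4 fell (median -0.17), and over 10 libraries 3 rose and 5 fell. Stbd1, which binds glycogen, averaged 310.3 ± 51.0 CPM in ChR2 against 162 ± 62.9 CPM in wild type (SD, n = 6; log2 fold change 0.95, edgeR adjusted p = 0.00661). Atl3, an endoplasmic reticulum receptor, rose by 0.70. Retreg3, of the reticulophagy regulator family, fell by 0.63 (0.42 over 10 libraries) and Tollip, a receptor that binds ubiquitin, fell by 0.44. Of 15 other mitophagy genes, 1 rose and 4 fell (median -0.29), and over 10 libraries 1 rose and 6 fell. The gene that rose was Nipsnap1, a mitochondrial protein shown on damaged mitochondria, with 6.11 ± 1.73 CPM in ChR2 against 2.37 ± 1.01 CPM in wild type (SD, n = 6; log2 fold change 1.36). The mitochondrial ubiquitin ligase Mul1 (-0.74, and -0.47 over 10 libraries) and the receptor Bcl2l13 (-0.56) fell. Pink1, the kinase that marks damaged mitochondria, did not pass (-0.38, edgeR adjusted p = 0.0731), so the rise of Bnip3 and Bnip3l was not shared by most mitophagy genes listed.

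Lysosomal hydrolases were mixed, with 4 of 20 tested higher and 2 lower (of 22 listed, and the same counts over 10 libraries). Of all genes tested, 28.1% were called over 12 libraries and 35.2% over 10, so the total share of hydrolases called was near that of all genes. Ctsd, the aspartic protease cathepsin D, moved the same way as Ctsl: it stood at 590.0, 581, 515, 638, 606 and 594 CPM in ChR2 wells 1 to 6 and at 1053, 1274, 1051, 933, 984 and 771 CPM in wild-type wells 1 to 6, with no overlap (log2 fold change -0.78, edgeR adjusted p = 0.000951). The sialidase Neu1 fell by 0.65, and the glycosidase Naglu (0.91) and cathepsin O (Ctso, 0.66) rose. Ctsb, which encodes cathepsin B, did not pass (-0.19, edgeR adjusted p = 0.262). Of 14 genes of the lysosomal membrane and proton pump, 1 rose and 5 fell in either set of libraries. Among them were the pump subunits Atp6v0c (-0.87, and -0.37 over 10 libraries) and Atp6v1a (-0.41), and the accessory subunit Atp6ap1, which rose (0.46).

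Of 13 genes of autophagosome-lysosome fusion, 5 fell and none rose in either set, with a median of -0.45 over 12 libraries and -0.14 over 10. Vps18 and Vps33a, shared subunits of the tethering complexes HOPS and CORVET, fell by 1.12 and 0.84. Vps18 had 105 and 98.1 CPM in wild-type wells 2 and 5 against 31.5 to 52.1 CPM in the other wild-type wells, and its log2 fold change over 10 libraries was -0.61. Of 27 upstream regulators, 2 rose and 6 fell, and over 10 libraries 3 rose and 7 fell. The total share called was near that of all genes tested, 28.1% over 12 libraries and 35.2% over 10. Those that rose were Sesn2, an inhibitor of mTORC1 (0.64), and Hif1a (0.62, edgeR adjusted p = 0.0369). Tsc1 (-0.56, and -0.34 over 10 libraries) and Tfeb, the transcription factor of lysosomal genes (-0.53, edgeR adjusted p = 0.0452), fell. Mtor fell as well (-0.37), and Foxo3, which drives Bnip3 and LC3 genes in muscle atrophy, did not pass (-0.09, edgeR adjusted p = 0.751, and 0.13 over 10 libraries). Targets of ATF4 and CHOP, factors of the integrated stress response that are known to induce autophagy genes, rose in 6 of 8 cases and fell in none. All 8 rose over 10 libraries, and the shares of all genes that rose were 14% over 12 libraries and 18.9% over 10. Trib3 (1.53) and Ddit3 (1.50) rose the most, and Sesn2 is in this list too. The calls for Hif1a, Tfeb and Ctso were lost when most single libraries were left out (edgeR adjusted p up to 0.0692, 0.0955 and 0.0998), and that for Atg4d without ChR2 well 2 or 3 (0.0508 and 0.0575). Without wild-type well 2 the log2 fold change was -0.56 for Atp6v0c and -0.35 for Tfeb.

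**Figure D5:**
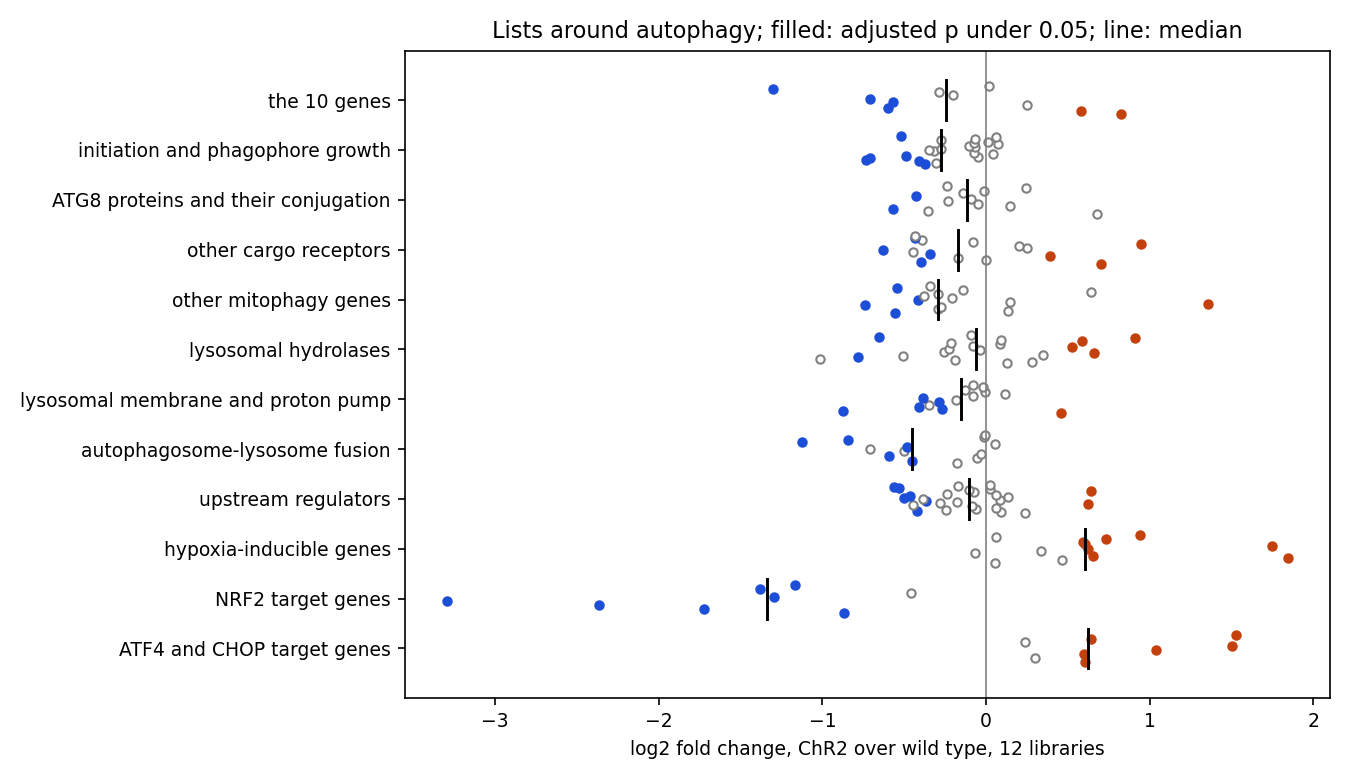
Log2 fold change over 12 libraries, ChR2 over wild type, of every tested gene in the lists around autophagy, with the 10 genes among them; points are genes, filled where the adjusted p is under 0.05 (orange higher, blue lower), and black lines are medians. The medians run from -1.34 for NRF2 target genes to 0.62 for ATF4 and CHOP target genes, with the hypoxia-inducible genes at 0.60 and the 10 genes at -0.24.

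Markers of other cell states were measured beside these genes. Of all genes tested, 14% were called higher in ChR2 and 14.1% lower, and over 10 libraries 18.9% and 16.3%. Myotube genes were abundant in every well, so the label myoblast covers wells with a myotube programme: the 7 genes summed to 10341 to 12111 CPM in ChR2 and 8770 to 24532 CPM in wild type (8770 to 14340 CPM without wells 2 and 5), and 3 of 7 (Myog, Des and Ttn) were lower in ChR2. Over 10 libraries 2 of 7 were lower, without Des, and the log2 fold change of Ttn went from -2.00 to -0.79. Ttn stood at 11495 and 10798 CPM in wells 2 and 5 against 1828 to 2535 CPM in the other wild-type wells. All 5 genes of dividing cells were higher in ChR2, with sums of 504 to 713 CPM against 66.8 to 394 CPM in wild type (133 to 394 CPM without wells 2 and 5, where all 5 were again higher). Of 6 fibroblast genes 5 were tested and 2 were higher in ChR2, with sums of 553 to 704 CPM against 259 to 1092 CPM (259 to 799 CPM without wells 2 and 5). Macrophage genes summed to at most 9.27 CPM, and endothelial and adipocyte genes to at most 0.687 CPM. The part of the dividing cells and of the myotube genes in the results for the 10 autophagy and mitophagy genes was not tested.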

How the data were processed

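RNA from 12 wells of C2C12 cells, 6 per line, was sequenced after poly(A) selection or, for samples with little RNA that are not named, ribosomal RNA depletion, per the labels' protocols. The authors deposited estimated counts per gene, which need not be whole, and TPM for the same genes and libraries, with symbols paired to Ensembl identifiers. The submitters' processing notes name Salmon, STAR, bedtools 2.25.0 and BWA 0.7.12-r1039 as tools, with GRCm39, mm10 and hg19 as builds. Their roles are not given in the sources used here. No sample column was left out. The genotype label gave the groups, and titles the replicate numbers.

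Estimated counts were rounded. Genes were kept by filterByExpr (minimum count 10), libraries scaled by TMM, and the lines compared by edgeR's robust quasi-likelihood test with Benjamini-Hochberg adjustment over all genes tested, called at 0.05 (edgeR 4.0.16, R 4.3.3). Levels are CPM on TMM-scaled sizes. The fits were tested on simulated counts. Libraries were amplified, and the labels' protocols mention no molecular identifiers, so depth limits counting error alone; wild-type wells 2 and 5 had the least. Ratios were compared by exact permutation of wells. Same-line libraries differed by at least 5.09 chi-square per degree of freedom, so each counted once.

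The 10 genes and all lists were chosen with earlier results of these data known. Of each list up to 2 called genes with the largest rise and up to 2 with the largest fall, at 1 CPM or more, were named. Gabarap, Gabarapl2, Pink1, Ctsb, Mtor, Foxo3, Gclm and Txnrd1 were named outside this rule, with their values seen. Ddit3 has more than 1 identifier, and the row with the higher count was used. Promoters are RefSeq's, matched by symbol. Other settings were DESeq2 1.42.0 (size factors, Wald test), no filter, limma 3.58.1 on log2(TPM + 1) and log2(TPM + 0.1), the replicate number as a block, and libraries left out. Chosen after seeing the data was the limma fit on log2(TPM + 1) in 10 libraries. Figures were drawn with matplotlib 3.10.9.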

Additional observations from a re-analysis of the deposited data

Results flagged for a closer look

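Of 26 groups of 6 wells examined, 2 had a well far from the rest by Dixon's criterion at the 95% level, which by chance marks about 1 group in 20. Nbr1 stood at 204 CPM in wild-type well 5, against 140.2 to 157 CPM in the other wild-type wells, and the gap took 0.732 of the group's range. The TPM ratio of Map1lc3a to Map1lc3b stood at 5.56 in wild-type well 2, against 2.24 to 3.29 in the other wild-type wells, with a gap of 0.685 of the range. These are the wells with the fewest counts and the most 7SL RNA, whose part in these values was not tested.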

How the results depend on the processing

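With limma on log2(TPM + 1), log2(TPM + 0.1) and log2(TPM + 1) without a filter, over 12 libraries, 620, 271 and 425 genes were called against 3701, 8, 4 and 4 genes of the autophagy, hypoxia, NRF2 and ATF4 lists against 65, and 0, 0 and 0 of the 10 genes (1 at an unadjusted p under 0.05 in each, by limma) against 6. In these fits the median of all genes shifted to 0.35, 0.43 and 0.08, and 7SL RNA took 72.0% and 50.8% of TPM in wild-type wells 2 and 5. They reversed Nbr1 (0.064, 0.070 and 0.064), Map1lc3b (0.15, 0.16 and 0.15), Atg4d (0.080, 0.11 and 0.080) and Atp6v1a (0.012, 0.020 and 0.012). The limma fit on TPM in 10 libraries called 3395 genes and 4 of the 10 (Map1lc3a, Map1lc3b, Bnip3 and Ctsl), without Sqstm1 and Bnip3l, and reversed Fundc1 (-0.10) and Ulk1 (-0.033). Without wild-type wells 2 and 5 the ratio differences were -0.24 for Map1lc3a to Map1lc3b and -0.58 for Sqstm1 to Nbr1, both past 0.05 when adjusted. Leaving out 1 library at a time gave 2822 to 4115 genes, 5 to 6 of the 10 and 53 to 71 list genes. It gave Ulk1 at -0.038 to 0.081 and ratio differences of -0.55 to -0.28 for Map1lc3a to Map1lc3b, 0.41 to 0.55 for Bnip3 to Bnip3l, and -0.93 to -0.62 for Sqstm1 to Nbr1. The last lost its call without ChR2 well 3 (exact permutation, adjusted p = 0.0541) or wild-type well 1 or 5 (0.0519 each). DESeq2 called the same 6 of the 10 with either setting, and no filter left out Gabarapl1 alone (0.0522).

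Deviations of same-numbered wells correlated by -0.14 to 0.10, and 1 of 6 ChR2 wells correlated best with its own number, so the numbers did not pair the wells. With the replicate block 2641 genes, 50 list genes and 5 of the 10 were called, and among the 10 Gabarapl1 alone changed its call (edgeR adjusted p = 0.122).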
